A study of Mus musculus with 4 samples.

Results

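Osteocalcin-positive enterocytes are the absorptive cells of the small intestinal epithelium that held RNA of the osteocalcin genes Bglap, Bglap2 and Bglap3. They were taken from single-cell RNA libraries of the neonatal mouse, in which each RNA molecule carries a unique barcode (UMI) and is counted once. A cell was called an enterocyte when it had 1000 to 6000 detected genes, a mitochondrial share under 20%, at least 3 of the 6 absorptive genes Fabp1, Fabp2, Apoa1, Apoa4, Alpi and Lct detected and fewer than 2 of the 5 cycling genes Mki67, Top2a, Ube2c, Cdk1 and Birc5. Members were those enterocytes with 3 or more UMIs summed over the 3 osteocalcin genes, and they were compared with enterocytes of the same library that had 0. In all, 1837 of 28245 enterocytes, among 36202 called cells, were members, 24554 had 0 osteocalcin UMIs and 1854 had 1 or 2 and entered neither class. Since the osteocalcin counts chose the cells, their values are a description with no test.

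The epithelium was released from the small intestine of 2 wild-type pups at postnatal day 6, jejunum and ileum being taken from each animal, so that each region had 2 libraries. All 4 groups share the genotype and the age, and no group was treated. Replicate 1 of both regions came from the mouse labelled male in batch 1 and replicate 2 from the mouse labelled female in batch 2. Mouse, batch and labelled sex are the same split and cannot be told apart, and the labelled sex did not match the Xist and Eif2s3y counts in any of the 4 libraries. The called cells of the ileal libraries held 131400239 and 125067265 UMIs and those of the jejunal libraries 64391480 and 57951874, so ileal cells held more UMIs. The depth of a cell here means its number of UMIs, and the cause of the difference was not tested. Between any pair of libraries 0 or 1 cell barcodes were shared.

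Osteocalcin is a small secreted protein best known from bone, where osteoblasts deposit it in the mineralised matrix. Its glutamate residues are carboxylated by a vitamin K-dependent enzyme, which lets it bind calcium, and its transcription in bone responds to the Runt factor Runx2 and to vitamin D. The mouse carries 3 neighbouring copies, while enterocytes of the suckling intestine are known for taking up milk protein whole and digesting it in large lysosomal vacuoles.

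The 3 copies lie in a row on the minus strand of chromosome 3. In the GENCODE M21 annotation of GRCm38, Bglap3 (ENSMUSG00000074489) spans positions 88368616 to 88372743, Bglap2 (ENSMUSG00000074486) 88377736 to 88378699 and Bglap (ENSMUSG00000074483) 88383501 to 88384464. The count files were made on GRCm39, so these positions place the genes but do not belong to the counts. The copies are shown by the last 60 bases of their coding sequence, stop codon included, because libraries made from the 3′ end read this side of the transcript. Capitals mark the positions at which the 3 copies are not all alike.
Bglap: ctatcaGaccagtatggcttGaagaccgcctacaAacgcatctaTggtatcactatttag
Bglap2: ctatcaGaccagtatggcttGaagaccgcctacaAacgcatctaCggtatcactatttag
Bglap3: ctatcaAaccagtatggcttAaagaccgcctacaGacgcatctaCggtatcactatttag

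In this stretch Bglap2 differed from Bglap at 1 base and Bglap3 at 4. Over the whole coding sequence of 288 bases Bglap was 98.6% identical to Bglap2 and 95.5% to Bglap3, and over the last 200 bases of the transcripts the identities were 99.5% and 97%. Reads from one copy can therefore be lost or counted for another, so the values of single copies are uncertain and the sum of the 3 was used to choose cells.

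The 5′ sides of Bglap and Bglap3 are unlike. The 250 bases before the start of Bglap and before the outermost of the 3 starts listed for Bglap3 are printed from RefSeq's GRCm38.p6 annotation. They lie at chr3:88384467-88384716 and chr3:88372742-88372991, both on the minus strand. They show how little the promoters of Bglap and Bglap3 share beside the near-identical 3′ ends. Bglap2 had no entry among these promoters, so its 5′ side was not compared. Capitals mark the Runx letters ACCACA (or TGTGGT on the other strand) and the TATA letters TATAAA (or TTTATA), which do not overlap each other.
Bglap: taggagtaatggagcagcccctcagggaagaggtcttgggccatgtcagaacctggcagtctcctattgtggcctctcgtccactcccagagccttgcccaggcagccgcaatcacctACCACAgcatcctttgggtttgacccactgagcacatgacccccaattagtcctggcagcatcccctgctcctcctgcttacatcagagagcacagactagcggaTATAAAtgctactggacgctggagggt
Bglap3: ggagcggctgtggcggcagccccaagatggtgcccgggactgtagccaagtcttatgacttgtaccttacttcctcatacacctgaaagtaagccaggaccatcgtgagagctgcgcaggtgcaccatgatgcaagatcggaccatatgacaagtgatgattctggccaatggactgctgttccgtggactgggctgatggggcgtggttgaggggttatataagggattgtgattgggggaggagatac

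The Bglap window held the Runx letters once, beginning 132 bases before the start, and the TATA letters once, 27 bases before it. None of the 3 Bglap3 windows held either set of letters. Only these exact letters were searched, so other forms of either motif were not counted. The outermost Bglap3 window holds the similar letters TATATAA, so a lack of a TATA box cannot be read from this search. Of 32851 promoter windows of this length, 14% held the Runx letters and 12.4% the TATA letters on one strand or the other, so a match is common and is a description of the sequence only. The outermost Bglap3 window was 53% identical to that of Bglap in a gapped alignment.

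Members were more frequent in the ileum of both mice. They made up 695 of 6637 enterocytes in ileum replicate 1, or 10.5% (exact Clopper-Pearson 95% interval 9.74% to 11.2%), and 695 of 7882 in ileum replicate 2, or 8.82% (8.20% to 9.47%). In the jejunum they were 314 of 8479, or 3.70% (3.31% to 4.13%), and 133 of 5247, or 2.53% (2.13% to 2.997%). Both ileal shares were above both jejunal ones, and the intervals, which cover counting error only, did not overlap between the regions. With every cell thinned to 2000 UMIs, which left 6589 and 7598 ileal and 7743 and 5011 jejunal cells, the ileal shares fell to 3.96% and 2.68% and the jejunal shares to 1.60% and 1.06%. The order of the regions was the same at equal depth, and the ratio between them was smaller.

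Free RNA in the suspension can give UMIs to cells that do not express a gene, so the share was also taken in other cells. Among cycling cells, with 2 or more of the 5 cycling genes, 4.05% and 2.26% of ileal and 0.783% and 1.26% of jejunal cells had 3 or more osteocalcin UMIs, at median depths of 6894, 8958, 6140 and 7546 UMIs against 13144, 11199, 4627 and 5779 in enterocytes. At 2000 UMIs the cycling shares were 0.775%, 0.199%, 0.208% and 0%, each under that of the enterocytes of the same library. The last was 0 of 457 cells, which allows a share of up to 0.804% (exact 95% interval). Of cells with 4 or more of 14 immune markers, 2 of 12 in ileum replicate 1 and 0 of 9, 18 and 11 in the other libraries were at 3 or more, too few to set a level.

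The number of osteocalcin UMIs per cell ranged widely above the limit. In ileum replicate 1, 442 enterocytes had 1 UMI, 103 had 2, 56 had 3 and 401 had 10 or more. In ileum replicate 2 the same classes held 516, 135, 84 and 315 cells. The jejunum had fewer high cells, with 330, 119, 66 and 47 in replicate 1 and 166, 43, 25 and 37 in replicate 2. Cells just outside and just inside the limit, with 2 and 3 UMIs, had median depths of 7681 and 9538.5 UMIs in ileum replicate 1 and 5977 and 7013 in ileum replicate 2, below the 12628 and 10923 of cells with 0. Cells with a single osteocalcin UMI were deeper than cells with 0, at 14210.5 and 11776. Members held 93.96% and 91.4% of all osteocalcin UMIs of ileal enterocytes, and 77.9% and 80.3% of those of jejunal enterocytes.

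**Figure D1:**
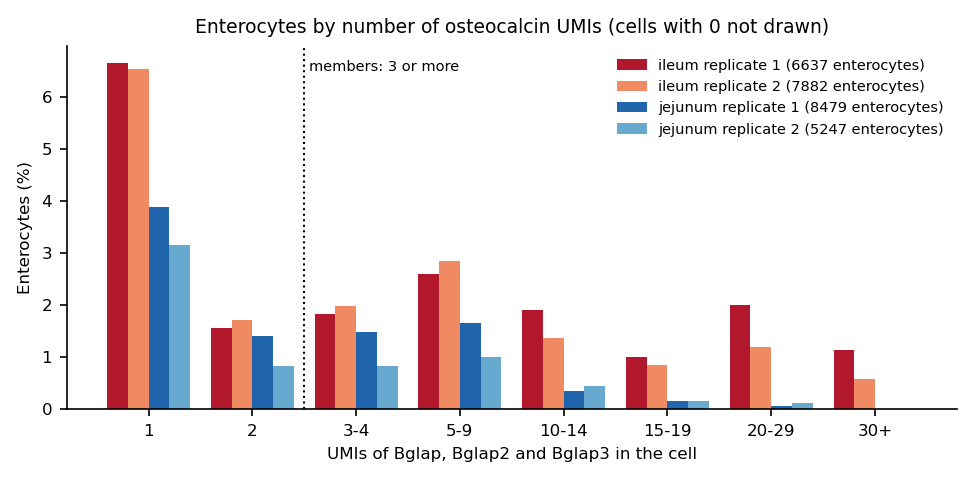
Percent of enterocytes (vertical axis) by the number of UMIs summed over Bglap, Bglap2 and Bglap3 (horizontal axis), with a bar for each of the 4 libraries; cells with 0 are not drawn and the dotted line marks the limit of 3 UMIs. The ileal libraries had 401 and 315 cells with 10 or more UMIs, the jejunal ones 47 and 37.

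Bglap3 led in the ileum and shared the lead with Bglap in the jejunum. The median ileal member held 12 and 9 osteocalcin UMIs and the median jejunal member 5 and 6, with maxima of 50 and 54 against 27 and 25. Summed over members, the 3 genes were at 1008 and 887 CPM (UMIs of a gene scaled to 1 fixed total in every sum) in ileal and 892 and 839 CPM in jejunal members. The limit of 3 UMIs sets a higher lowest CPM in the shallower jejunal cells, so these sums do not compare the level between regions. Of these UMIs, Bglap3 took 68.3% and 65.7% in ileal members but 38.3% and 45.8% in jejunal ones. The share of Bglap was 23.7% and 24.5% in ileal members against 49.4% and 39.4% in jejunal ones. Bglap2 was lowest in every library, at 8.07%, 9.78%, 12.3% and 14.8%. A UMI of each of the 3 copies was found in 56.5% and 54.8% of ileal and 39.2% and 50.4% of jejunal members, and 0 members held Bglap2 alone. The regional shift in the copies rests on reads that differ at few bases, as printed above.

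**Figure D2:**
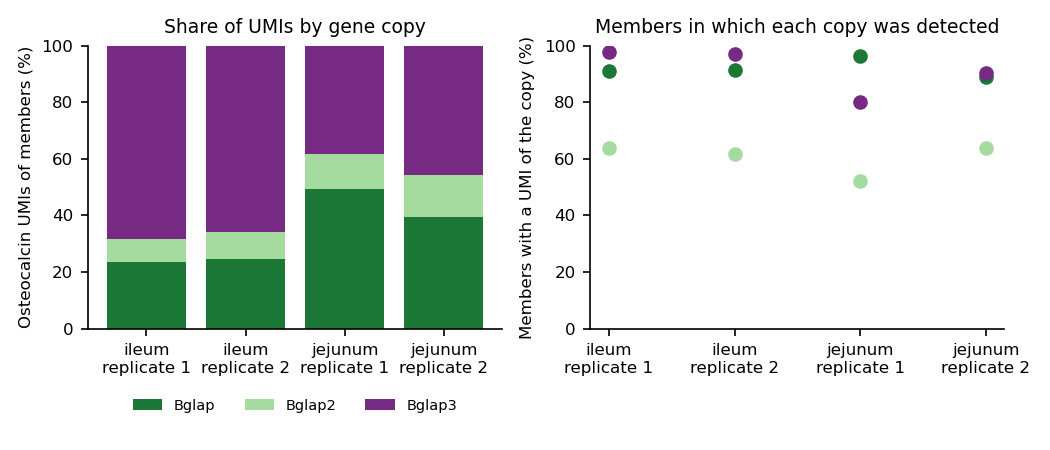
Left, percent of the members' osteocalcin UMIs (vertical axis) assigned to each gene copy in each library; right, percent of members with at least 1 UMI of each copy. In ileal members Bglap3 took 68.3% and 65.7% of the UMIs, against 38.3% and 45.8% in jejunal members.

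Members were deeper than the cells they were compared with. Ileal members had a median of 16723 and 14691 UMIs and jejunal members one of 6181 and 7015, against 12628, 10923, 4602.5 and 5749 in cells with 0. A deeper cell has more chance to reach 3 osteocalcin UMIs. Each comparison was therefore also made against as many zero cells drawn from the same depth range. That draw holds fewer zero cells than the full class, so a call can be lost without a smaller fold change. At 2000 UMIs members and zero cells had nearly the same mean number of genes, 1366 against 1366 and 1358 against 1357 (ileum) and 1252 against 1260 and 1221 against 1223 (jejunum). Of all UMIs, a median of 3.53% and 3.65% was mitochondrial in ileal members and 5.097% and 7.96% in jejunal ones, below the share in the zero cells of the same library (3.59%, 3.75%, 6.56% and 10.3%). In depth-matched zero cells it was 3.34%, 3.41%, 4.78% and 8.95%. Members were above these in both ileal libraries and in jejunum replicate 1, and below only in jejunum replicate 2. Median doublet scores of members and zero cells lay between 0.0631 and 0.0759.

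Genes other than osteocalcin were then compared between members and zero cells, summed within each library, by edgeR's quasi-likelihood test with the library as a block and Benjamini-Hochberg adjustment. In the ileum 3041 of 17815 genes tested passed an adjusted p of 0.05, or 17.1%, of which 1614 were higher in members (9.06%) and 1427 lower (8.01%). For 218 of them the log2 fold change was beyond 1 in either direction. In the jejunum 1310 of 16095 passed, or 8.14%, with 638 higher (3.96%) and 672 lower (4.18%), and 219 of them beyond 1. Each region has 2 libraries, so these p-values measure how far the difference between members and zero cells varied between 2 libraries, with the spread of all genes pooled. Each fit had 1 residual degree of freedom, against prior ones of 34.2 (ileum) and 36.8 (jejunum) from the pooled genes. The pooled spread therefore set the p-values more than the 2 libraries of a gene did. Without the block no gene passed (704 and 1310 genes had an unadjusted p under 0.05 in the ileum and the jejunum). DESeq2 called 972 and 468 genes. Against depth-matched zero cells, 808 of 13633 genes tested were higher and 795 lower in the ileum. In the jejunum 435 were higher and 377 lower of 9684. Depth-matched counts of lists stand beside these totals.

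Enpp3, an ectoenzyme that cleaves extracellular nucleotides and a gene of the villus tip list, rose in both regions. In the ileum it was at 416 and 353 CPM in members and 260.3 and 208 CPM in zero cells. In the jejunum it was at 398 and 318 CPM against 184 and 122 CPM. Members were higher in all 4 libraries and the classes did not overlap within a region. The log2 fold change was 0.75 (SE 0.026, adjusted p = 1.56e-22) in the ileum and 1.24 (SE 0.066, adjusted p = 3.57e-17) in the jejunum. A UMI of Enpp3 was found in 70.9% and 73.5% of ileal members against 54.5% and 56% of depth-matched zero cells, and in 68.2% and 63.9% of jejunal members against 44.6% and 34.6%.

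Mmp15, a membrane-bound metalloprotease, followed the same course. It stood at 68.4 and 68.2 CPM in ileal members against 44.3 and 43.8 CPM, and at 99.9 and 66.9 CPM in jejunal members against 45.6 and 32.6 CPM. Its log2 fold change was 0.66 (SE 0.048, adjusted p = 2.01e-13) in the ileum and 1.12 (SE 0.11, adjusted p = 8.37e-10) in the jejunum. Sprr2a2, a small proline-rich protein of stressed epithelia, was at 2444 and 1048 CPM in ileal members against 1524 and 494 CPM, and at 261 and 121 CPM in jejunal members against 79.4 and 37.5 CPM. It was higher in members of every library, but the 2 ileal libraries lay far apart, a single cell held 20.9% and 23% of the members' UMIs in the jejunum, and its ileal call (log2 fold change 0.90, SE 0.039, adjusted p = 5.94e-20) was lost when the spread was estimated robustly (adjusted p = 0.293). The gene model 3300005D01Rik, excluded by the rule for names and singled out after its values were seen, was detected in 48.1%, 43.5%, 40.8% and 49.6% of members (ileum, then jejunum) against 30.8%, 21.3%, 21% and 15% of depth-matched zero cells.

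Cox6b2, a subunit of cytochrome oxidase, Gpr151, an orphan receptor, and Aplp1, a relative of the amyloid precursor, rose in both regions, with log2 fold changes of 0.81, 0.77 and 0.66 in the ileum (adjusted p between 1.25e-13 and 1.60e-08) and 1.34, 0.84 and 0.97 in the jejunum (adjusted p at most 2.66e-04). Ppef1, a calcium-regulated phosphatase, rose by 0.80 in the ileum, where it was at 60.5 CPM in members of replicate 1 and 7.43 CPM in members of replicate 2, and by 1.91 in the jejunum on few UMIs (adjusted p = 0.00900). Trf, the iron carrier transferrin, the lysosomal phospholipase Pla2g15, the junction protein Cgnl1 and Nhs rose in the ileum alone by the test in each region (log2 fold changes 0.73, 0.70, 0.69 and 0.74), and for none of them did the change pass the test of a difference between the regions (adjusted p between 0.460 and 0.866).

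Sergef had the highest log2 fold change of the named genes in the ileum, 1.24, which came from 1 library. It was at 47.2 CPM in members and 13.4 CPM in zero cells of ileum replicate 1, but at 10.8 and 10.6 CPM in replicate 2. A single member held 184 of the 472 Sergef UMIs of replicate 1, without which the members stood at 28.9 CPM, and the gene was detected in 13.2% of members and 13.6% of zero cells there. With robust estimation of the spread its adjusted p was 0.606, and without ileum replicate 1 its log2 fold change was 0.046.

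Among the 24 named genes the lowest log2 fold changes were further from 0 than the highest. Krt19, a keratin, was at 6.80 and 7.54 CPM in ileal members against 31.2 and 49.7 CPM in zero cells, and at 6.69 and 11.4 CPM in jejunal members against 48.1 and 69.8 CPM. Its log2 fold change was -2.46 (SE 0.099, adjusted p = 1.39e-20) in the ileum and -2.71 (SE 0.20, adjusted p = 3.90e-13) in the jejunum. Ccnd2, a cyclin of the G1 phase, was at 8.10 and 5.31 CPM against 33.2 and 38.97 CPM in the ileum, and at 4.02 and 8.97 CPM against 45.2 and 51.05 CPM in the jejunum. All 4 member sums lay under all 4 zero sums for both genes. Neither gene was common even in zero cells, with Krt19 detected in 14.1% and 15.7% and Ccnd2 in 15.2% and 14.3% of ileal ones, so a minority of zero cells carried these levels.

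Ccl25, a chemokine that attracts lymphocytes to the small intestine, was at 23.7 and 43.5 CPM in ileal members against 72.5 and 108 CPM, and at 57.6 and 90.5 CPM in jejunal members against 161 and 221 CPM (log2 fold change -1.40 and -1.37). Pigr, the receptor that carries antibodies into the lumen, was at 42.01 and 8.28 CPM against 109.9 and 22.2 CPM in the ileum and at 154 and 16.3 CPM against 342 and 91.9 CPM in the jejunum (log2 fold change -1.36 and -1.28). The levels of Pigr differed several-fold between replicates of a region, while the direction was the same in all 4. The nuclear receptor Nr2e3 (-1.37), the epithelial factor Ehf (-1.23), the fatty acid desaturase Fads2 (-1.16), the mitochondrial carrier Ucp2 (-1.04), the galectin Lgals2 (-1.04), the metallothionein Mt2 (-1.02), the folate enzyme Shmt1 (-0.97) and the creatine kinase Ckb (-0.96) also fell in the ileum. All 12 of the named genes that fell in the ileum were called lower in the jejunum too (adjusted p at most 0.00489). There the call of Pigr was lost with robust estimation of the spread (adjusted p = 0.137) and that of Shmt1 against depth-matched zero cells (adjusted p = 0.0913), in which Ehf was too low to test.

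**Figure D3:**
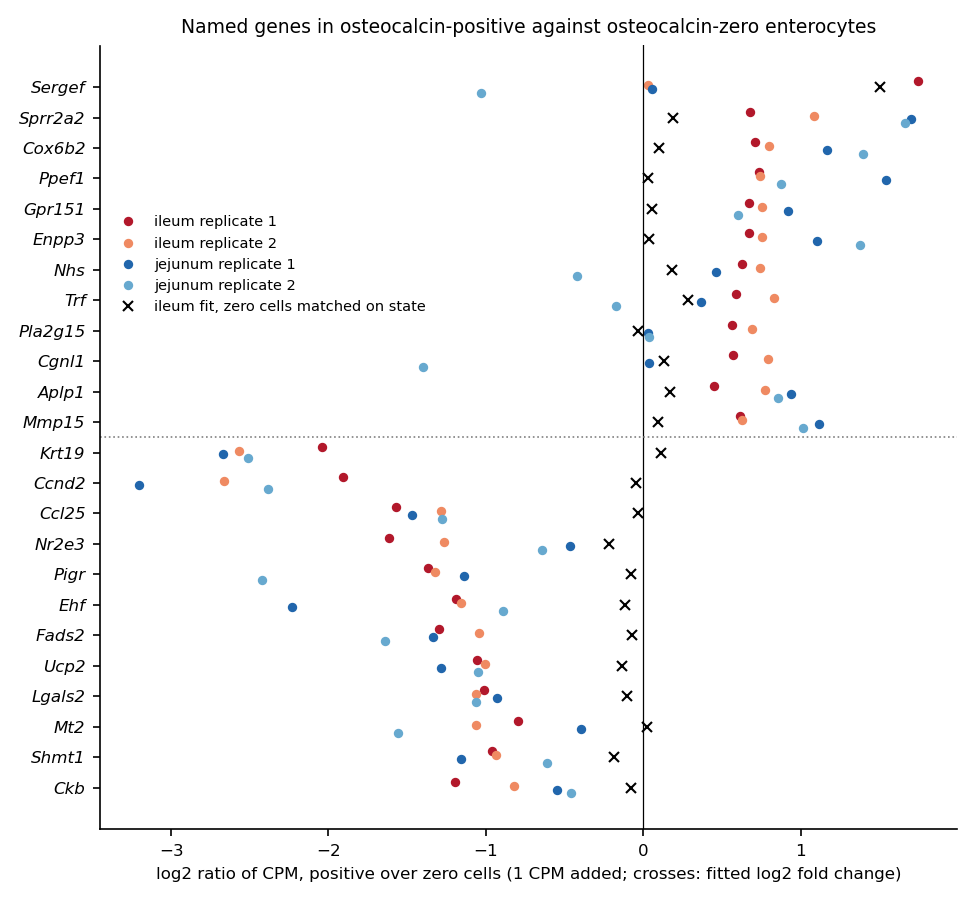
log2 ratio of CPM in members over zero cells (horizontal axis, 1 CPM added), with a point for each library. The genes are the 12 highest and the 12 lowest in the ileum among those that passed the rule for names. Crosses are the fitted ileal log2 fold change against zero cells matched on state. Every lower gene lies left of 0 in all 4 libraries, while Sergef is high in ileum replicate 1 only.

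Lysosomal genes were raised as a group. Of 55 lysosomal genes tested, 42 were higher in ileal members and 0 lower (median log2 fold change 0.18), and 28 were higher and 0 lower in the jejunum (median 0.24), where the median over all genes tested was -0.0056 and -0.041. Lgmn, the protease legumain, was at 5716 and 4669 CPM in ileal members against 4076 and 3153 CPM, and at 3549 and 2250.6 CPM in jejunal members against 1895 and 987 CPM. Ctsl, cathepsin L, was at 2195 and 2768 CPM against 1533 and 1941 CPM in the ileum and at 3528 and 2960.3 CPM against 2079 and 1598 CPM in the jejunum. Both were higher in members of all 4 libraries (log2 fold change 0.56 and 0.55 in the ileum, 1.06 and 0.85 in the jejunum). Lipa, which splits cholesteryl esters in the lysosome, rose by 0.36 and 0.53. Fewer were called in the ileum with either ileal library left out. The ileal median lay between 0.15 and 0.20 over 13 settings, which leave out matching on state and the fit without the block. With matching on state 1 was called higher in the ileum (median 0.0066). Without the block 0 were called higher (median 0.18). The summed level of the list was 37154 and 38326 CPM in ileal members against 31592 and 32337 CPM in zero cells.

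Genes of apical endocytosis, by which neonatal enterocytes take up protein from the lumen, moved in the same direction by less. Of 27 tested, 13 were higher and 2 lower in ileal members (median 0.099), and 6 were higher and 0 lower in the jejunum (median 0.14). The adaptor Dab2 was at 955 and 803 CPM in ileal members against 851 and 712 CPM, and the receptor subunit Amn at 1446 and 1711 CPM against 1355 and 1652 CPM. The log2 fold change of Dab2 was 0.20 (ileum) and 0.31 (jejunum), and that of Amn 0.10 and 0.27. The receptor Lrp2 (megalin) rose by 0.48 in the ileum and the recycling GTPase Rab11a by 0.16 (ileum) and 0.32 (jejunum). The 2 lower genes were Cltc, the clathrin heavy chain (-0.092), and Mamdc4, a vesicle protein of neonatal enterocytes (-0.13).

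Villus position was read from lists of genes known to mark the base, the middle and the tip of the villus. Of 18 base genes, 12 were lower in ileal members (median -0.34) and 14 in jejunal members (median -0.80), while Reg3g, an antibacterial lectin, was higher in both regions (log2 fold change 0.24 and 1.41). Reg3g was at 149 and 29.9 CPM in members of replicate 1 against 129 and 10.2 CPM (ileum, then jejunum), but at 2.23 and 0 CPM against 1.97 and 1.13 CPM in replicate 2. Olfm4, a crypt gene, was at 3.30 and 2.87 CPM in ileal members against 6.65 and 8.40 CPM, and at 18.3 and 14.7 CPM in jejunal members against 42.7 and 37.5 CPM (log2 fold change -1.25 and -1.24). The ileal calls of Reg3g and Olfm4 were lost against depth-matched zero cells (log2 fold change 0.20 and -0.62, adjusted p = 0.110 and 0.158). Of 19 tip genes tested in the ileum, 10 were higher and 2 lower (median 0.22), and of 18 in the jejunum 6 were higher and 1 lower (median 0.20). Apoa4, an apolipoprotein of milk fat export, was at 7182 and 7592 CPM in ileal members against 5727 and 6225 CPM, and at 19044.5 and 21348 CPM in jejunal members against 16306 and 18061 CPM. Klf4, a factor of mature epithelium, rose by 0.31 (ileum) and 0.60 (jejunum), and the cholesterol transporter Npc1l1 by 0.26 and 0.42. The 2 tip genes lower in the ileum were Mttp (-0.11) and Atf3 (-0.077). Atf3 was not called against depth-matched zero cells (log2 fold change -0.081, adjusted p = 0.164). The middle list was mixed, with 5 of 15 higher and 1 lower in the ileum and 1 higher and 3 lower in the jejunum.

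Ribosomal protein genes fell almost as a whole. Of 75 tested, 72 were lower and 1 higher in ileal members (median -0.24), and 71 were lower and 0 higher in the jejunum (median -0.46). Their summed level was 37859 and 35631 CPM in ileal members against 45022 and 43400.4 CPM, and 26316 and 24243 CPM in jejunal members against 35264 and 33184 CPM. Rpsa was at 444 and 476 CPM in ileal members against 637 and 699 CPM (log2 fold change -0.51). Fewer were called without ileum replicate 2. The ileal median lay between -0.28 and -0.22 over 13 settings, which leave out matching on state and the fit without the block. With matching on state 0 were called lower in the ileum (median -0.015). Without the block 0 were called lower as well (median -0.24). The base list holds 3 ribosomal genes of this list, so the 2 counts are not independent.

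Lipid genes split by pathway. Of 24 sterol synthesis genes, 15 were lower and 0 higher in ileal members (median -0.14), among them Lss, lanosterol synthase (-0.48). Against depth-matched zero cells 9 were lower and 1 higher, DESeq2 called 4 lower, and 5 and 2 were lower without ileum replicate 1 and without ileum replicate 2. In the jejunum 0 of the 24 passed in either direction (median -0.16). Of 28 fat absorption genes, 11 were higher and 4 lower in the ileum, and 8 were higher and 0 lower in the jejunum, where the fatty acid translocase Cd36 was at 234 and 254 CPM in members against 147 and 165 CPM (log2 fold change 0.67). Of 9 bile acid genes, 5 were lower in ileal members and 0 higher. For each of these lists the share over all genes was 9.06% higher and 8.01% lower in the ileum. In the jejunum it was 3.96% higher and 4.18% lower. Fabp6, the ileal bile acid binding protein, was at 87.8 and 252 CPM against 220.2 and 372 CPM (log2 fold change -0.82), a call that was lost with robust estimation of the spread (adjusted p = 0.470). Fgf15, the hormone that restrains bile acid synthesis in the liver, was at 107 and 59.9 CPM against 149.7 and 79.97 CPM (-0.43). The bile acid receptor Nr1h4 (-0.21) and the exporter Slc51a (-0.22) fell as well, the call of Slc51a being lost with robust estimation (adjusted p = 0.123).

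**Figure D4:**
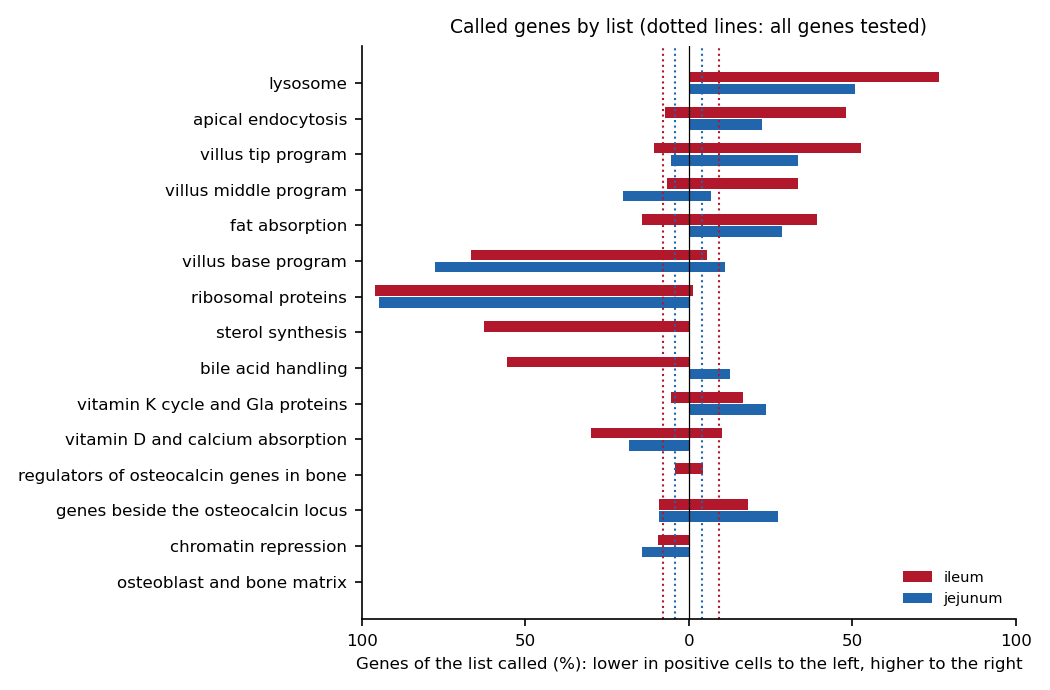
Percent of the tested genes of each list that were called lower (bars to the left) or higher (bars to the right) in members than in zero cells, for the ileum and the jejunum; dotted lines give the same percent over all genes tested. Lysosomal genes reach furthest to the right, with 42 of 55 in the ileum, and ribosomal protein genes furthest to the left, with 72 of 75.

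Few bone genes other than osteocalcin could be tested. Of 16 osteoblast and bone matrix genes, 6 were abundant enough to test in each region and 0 passed in either direction. Over all genes tested 17.1% were called in the ileum and 8.14% in the jejunum, so 6 genes are too few to tell 0 calls from that share. Runx2 was at 2.20 and 1.49 CPM in ileal members and 2.59 and 2.36 CPM in zero cells, and at 2.68 and 4.08 CPM against 3.36 and 3.23 CPM in the jejunum. Of 24 regulators of the osteocalcin genes in bone, 1 was higher, the Notch target Hes1 (0.16), and 1 lower, Cebpb (-0.14), in the ileum, and 0 passed in the jejunum. These counts stand beside the same 17.1% and 8.14% of all genes. The call of Cebpb was lost against depth-matched zero cells (log2 fold change -0.15, adjusted p = 0.115).

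Genes of the machinery that carboxylates osteocalcin were low or at like levels in both classes. The carboxylase Ggcx was near the floor, with 54 and 35 UMIs in all ileal members and 6 and 4 in all jejunal members, so its presence in members was not read from it. It stood at 5.40 and 3.72 CPM in ileal members and 3.68 and 3.80 CPM in zero cells (log2 fold change 0.32, SE 0.20, adjusted p = 0.346). Vkorc1, which recycles vitamin K, was at 228 and 287 CPM in members and 231 and 293 CPM in zero cells (log2 fold change 0.0055, SE 0.027, adjusted p = 0.938). Of 18 genes of the vitamin K cycle and its substrate proteins, 3 rose in the ileum and 1 fell, near the share of all genes tested there (17.1%). Those that rose were the growth factor Gas6 (0.19), coagulation factor F10 (0.39) and the proprotein convertase Furin (0.11), each of which rose in the jejunum too (0.52, 0.31 and 0.21) together with Vkorc1l1 (0.21). In the jejunum these were 4 of 17 genes tested, with 0 lower, beside 3.96% of all genes higher. The quinone reductase Nqo1 was called lower in the ileum (-0.19), but its log2 fold change against depth-matched zero cells was 0.016 (adjusted p = 0.931). The jejunal call of Vkorc1l1 was lost against depth-matched zero cells (log2 fold change 0.28, adjusted p = 0.0600).

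Genes of vitamin D action and calcium absorption went in both directions. Vdr, the vitamin D receptor, rose slightly in the ileum, at 63.02 and 55.1 CPM in members against 55.1 and 48.3 CPM (log2 fold change 0.22, adjusted p = 0.000828). S100g, the vitamin D-induced calbindin, fell, at 153 and 80.4 CPM against 241 and 131.3 CPM in the ileum and 37.5 and 26.9 CPM against 109.6 and 86.6 CPM in the jejunum (log2 fold change -0.65 and -1.56). The claudins Cldn15 (-1.91) and Cldn2 (-0.080) fell in the ileum, and Cldn15 also in the jejunum (-1.68). The call of Cldn2 was lost against depth-matched zero cells (log2 fold change -0.074, adjusted p = 0.117).

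Of 11 genes tested beside the osteocalcin locus, 3 were called in ileal and 4 in jejunal members, where 17.1% and 8.14% of all genes were called. Sema4a (0.15) and Glmp (0.14) were higher and Lmna (-0.43) lower in ileal members. Glmp (0.41), Slc25a44 (0.32) and Sema4a (0.31) were higher and Lmna (-0.69) lower in jejunal members. Against depth-matched zero cells 1 of 10 was higher and 0 lower in the ileum, and 2 of 10 were higher and 0 lower in the jejunum. Pmf1, the gene next to Bglap whose transcripts can run into it, was at 5.10 and 6.05 CPM in ileal members and 5.78 and 6.74 CPM in zero cells (log2 fold change -0.14, SE 0.16, adjusted p = 0.679). Of 21 chromatin repression genes, Uhrf1, a factor of DNA methylation in dividing cells, and the remodeller Atrx were lower in the ileum (-3.15 and -0.28). Uhrf1 was at or below 4.10 CPM in every sum. In the jejunum Uhrf1 (-2.49), Atrx (-0.50) and Trim28 (-0.47) were called lower. Smarcad1 did not pass in either region (-0.079 and 0.17, adjusted p = 0.618 and 0.716). The list had 0 calls against depth-matched zero cells in either region, and Uhrf1 was too low to test. Atrx then had log2 fold changes of -0.17 in the ileum (adjusted p = 0.136) and -0.49 in the jejunum (adjusted p = 0.0772). Trim28 was at -0.25 in the jejunum (adjusted p = 0.594).

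Markers of other cell types went in different directions. Of 15 enteroendocrine markers, 7 were lower in ileal members and 10 in jejunal members, and their summed level was 77.0 and 52.02 CPM in ileal members against 86.1 and 93.7 CPM, and 57.997 and 70.97 CPM in jejunal members against 199.7 and 183 CPM. Secretin (Sct) was the 1 marker called higher, in the ileum (0.28). Against depth-matched zero cells 0 of 8 enteroendocrine markers tested were lower and 1 was higher in the ileum (median log2 fold change -0.12), and 1 of 2 was lower in the jejunum. Stem and progenitor markers summed to 229 and 211 CPM in ileal members against 242 and 233 CPM, with 4 of 14 lower and Axin2 higher. Of 11 stem and progenitor markers tested against depth-matched zero cells in the ileum, 0 were lower and 1 was higher. In the jejunum they summed to 214 and 255 CPM in members against 299 and 312 CPM. There 6 of 13 tested were lower and 1 higher (median log2 fold change -1.24). Against depth-matched zero cells 2 of 7 were lower and 0 higher in the jejunum. Goblet markers summed to 243 and 215 CPM in ileal members against 205 and 168 CPM, but to 82.1 and 93.8 CPM in jejunal members against 130.02 and 114.9 CPM. Of 8 tested in the ileum, only 3 had a log2 fold change above 0, among them Fcgbp (0.45). The median there was -0.19, with 2 called higher and 1 lower. In the jejunum 2 of 8 were lower and 0 higher. With depth-matched zero cells, 2 of 6 goblet markers were higher and 0 lower in the ileum, and 1 of 3 was higher and 0 lower in the jejunum. Immune and mesenchymal markers summed to between 4.08 and 16.4 CPM in every class. The part of these few other cells in the results was not tested.

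Levels were also followed over classes of osteocalcin UMIs. In ileum replicate 1, Enpp3 was at 260.3, 250.1, 319, 373 and 435 CPM in cells with 0, 1, 2, 3 to 9 and 10 or more UMIs. In ileum replicate 2 the values were 208, 224, 257, 351 and 354 CPM. Summed ribosomal protein genes were at 45022, 45817, 38729, 38362 and 37635 CPM over the same classes in ileum replicate 1, and at 33184, 33547, 23454, 25184 and 22736 CPM in jejunum replicate 2. The largest step of the ribosomal sum in these 2 libraries lay between 1 and 2 UMIs. Not every gene or list was alike in cells with 0 and 1 UMI. In jejunum replicate 1 Ccnd2 was at 45.2 CPM in cells with 0 and 18.2 CPM in cells with 1, in jejunum replicate 2 Sprr2a2 was at 37.5 and 93.2 CPM, and the summed enteroendocrine markers there were at 183 and 38.3 CPM. Mmp15 did not rise further above 3 to 9 UMIs in any library. The classes differ in depth and in number of cells, and no test was made over them.

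**Figure D5:**
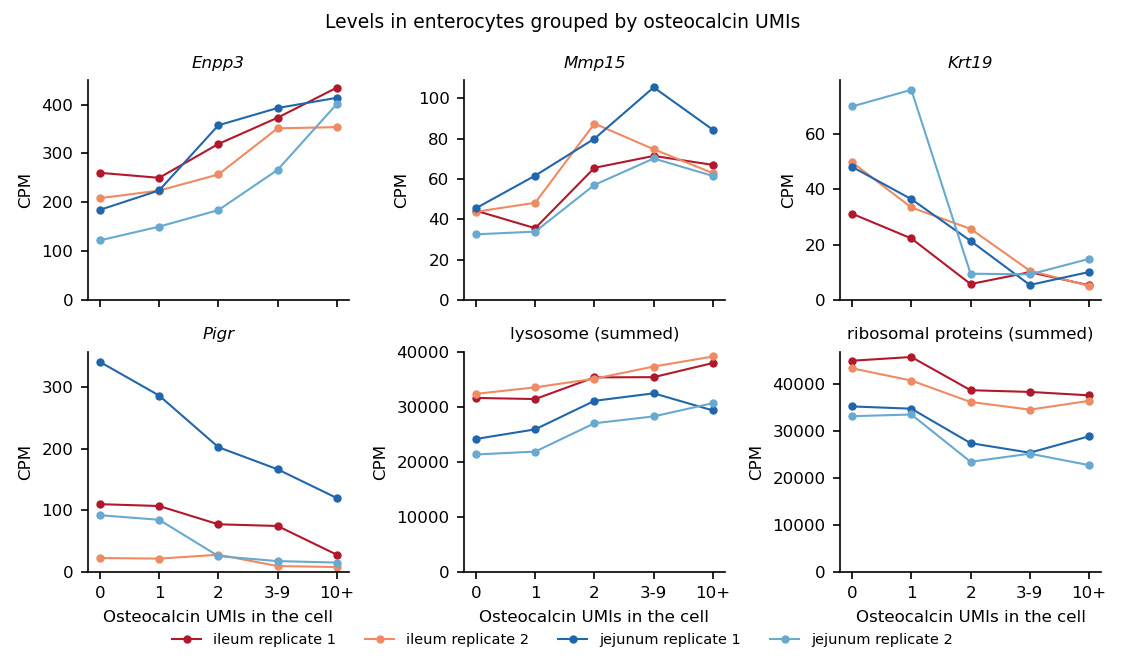
CPM of 4 genes and summed CPM of 2 lists (vertical axes, from 0) in enterocytes grouped by osteocalcin UMIs (horizontal axis), with a line for each library. For Enpp3 in ileum replicate 1, cells with 1 UMI stand at 250.1 CPM, near the 260.3 CPM of cells with 0, and cells with 10 or more at 435 CPM.

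Members lay among other enterocytes. Neighbours were found in 30 principal components of 2000 variable genes, osteocalcin left out. Among the 30 nearest neighbours of a member, 15.5% and 13.6% were members in the ileum, against 11.6% and 9.93% among neighbours of depth-matched zero cells and 10.5% and 8.82% of all enterocytes. In the jejunum the values were 7.39% and 5.51% against 4.03% and 2.63%, and 3.70% and 2.53% of all. Most neighbours of a member therefore had fewer than 3 osteocalcin UMIs in every library.

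When each member was instead set beside its nearest zero cell, fewer genes were called. The ileal fit then called 90 genes of 13609 and the jejunal one 3 of 9674, against 1603 and 812 with zero cells matched on depth. In the ileum, the log2 fold changes of the 24 named genes lay between -0.22 and 0.28 except for Sergef (1.51), and Sergef, Sprr2a2 (0.19) and Trf (0.28) were called. In the jejunum those tested lay between -0.49 for Pla2g15 (adjusted p = 0.9996) and 0.62 for Ucp2 (adjusted p = 0.953), and Sprr2a2 was called (0.45, adjusted p = 0.00752). The lysosomal median was 0.0066 with 1 of 55 genes called higher, and the ribosomal median -0.015 with 0 called lower. The matching used these same genes, so values near 0 follow in part from its construction.

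The change in members differed between the regions for 247 of 17928 genes, or 1.38%, of which 149 had the higher log2 fold change in the ileum (0.831%) and 98 in the jejunum (0.547%). Of the ribosomal protein genes, 37 of 75 fell further in the jejunum and 0 in the ileum, and of the lysosomal genes 10 of 55 rose further in the jejunum and 0 in the ileum. Lgmn differed by -0.47 (ileum minus jejunum, SE 0.051, adjusted p = 4.35e-07) and Enpp3 by -0.46 (SE 0.063, adjusted p = 2.65e-05). Against depth-matched zero cells the difference passed for 36 of 13212 genes in all. Jejunal cells are shallower and their zero class holds more enteroendocrine marker RNA, as given above, and the part of either in these differences was not tested.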

How the data were processed

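Epithelium of jejunum and ileum was released with EDTA and dispase, captured with the PIP-Seq V T20 kit and counted by the authors with PIPseeker at a resolution of 3. The deposited values are raw UMI counts per gene and called cell (32227 features, not normalized). The submitters' processing notes name GRCm39. The annotation behind the counts is not given in the sources used here.

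Cells were selected by the stated limits. Members and gene lists were chosen with earlier results of these data known. Counts of members and of zero cells were summed per library, the osteocalcin genes removed, genes filtered with filterByExpr, TMM factors computed and classes compared with edgeR 4.0.16's quasi-likelihood test (R 4.3.3) with library as a block, since both classes come from the same library. Fold changes above 0 mean a higher level in members. The difference between regions was tested in 1 fit over 8 sums. Named genes are the 12 highest and 12 lowest log2 fold changes in the ileum among genes also called against depth-matched zero cells, with the same direction in both libraries, a mean of 20 CPM or more in whichever class was higher and no gene-model symbol, and called list members. Fold changes of genes near 0 depend on the prior count. Doublets were scored with Scrublet in scanpy 1.11.5 (Python 3.11.15) and not removed in the main analysis. Neighbours used 30 principal components of 2000 variable genes. The limit of 4 immune markers was set after the data had been seen.

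The fit was tested on simulated data with 200 changed genes. A 1.5-fold change was recovered for 66 of 66 genes in the ileum and 55 of 66 in the jejunum. A 1.25-fold change was recovered for 58 of 68 and 16 of 68, and 0 and 5 unchanged genes were called. The changed genes were at 20 CPM or more, with the fit's own spread and the same fold in both libraries. Recovery under a change that varies between mice was therefore not tested. Alternatives were DESeq2 1.42.0, no filter, other thresholds and cells, each library left out, no block and all 8 sums, with matching on state and robust estimation added after seeing the data. Nothing says that the libraries of a region are other than 1 per mouse, so n = 2. Some genes are not reported here.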

Additional observations from a re-analysis of the deposited data

Results flagged for a closer look

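The change in members differed between ileum and jejunum for 12 of the genes named above, by edgeR's quasi-likelihood test of the difference over 8 sums with Benjamini-Hochberg adjustment over all genes. Values are the log2 fold change in the ileum minus that in the jejunum. Among genes that rose in both regions, the rise was smaller in the ileum for Sprr2a2 (-0.82, adjusted p = 2.86e-05), Enpp3 (-0.46, adjusted p = 2.65e-05), Mmp15 (-0.45, adjusted p = 0.0157), Gas6 (-0.32, adjusted p = 0.00213), Glmp (-0.25, adjusted p = 0.0273), Reg3g (-1.24, adjusted p = 0.00192), Lgmn (-0.47, adjusted p = 4.35e-07) and Ctsl (-0.28, adjusted p = 0.000129). Nr2e3 (-0.84, adjusted p = 4.30e-05) and Ckb (-0.45, adjusted p = 0.00707) fell further in the ileum, and S100g (0.93, adjusted p = 2.94e-05) fell further in the jejunum. Slc51a (-0.32, adjusted p = 0.000435) was called lower in the ileum, a call lost with robust estimation of the spread (adjusted p = 0.123), and not called in the jejunum. Against zero cells matched on depth, the difference no longer passed for Sprr2a2 (adjusted p = 0.758), Mmp15 (0.502), Ckb (0.544), Glmp (0.621), Reg3g (0.104) and Slc51a (0.0967). With robust estimation of the spread it was lost for Sprr2a2 (adjusted p = 0.616).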

How the results depend on the processing

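The library is the replicate block, because members and zero cells of a library come from the same mouse and capture. Without the replicate block 0 genes were called in the ileum, the jejunum or the difference between them (704, 1310 and 523 at an unadjusted p under 0.05), and all 24 named genes lost their call with their direction kept. DESeq2 called 972 genes in the ileum, 468 in the jejunum and 95 in the difference, against 3041, 1310 and 247. Zero cells matched on depth gave 1603, 812 and 36, and zero cells matched on state 90, 3 and 3. For the difference, no filter gave 392 and a mitochondrial limit of 10% gave 161. Leaving out each library in turn gave 597 to 3252 genes in the ileum (640 without ileum replicate 1 and 597 without ileum replicate 2), 960 to 1463 in the jejunum and 81 to 369 in the difference (81 without ileum replicate 1 and 137 without ileum replicate 2). With a library of a region left out, that region's lone library was assumed to vary like the others.

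The mean share of members moved from 9.64% to 11.3% at 2 or more UMIs, 7.74% at 5 or more and 3.32% at 2000 UMIs per cell in the ileum, and from 3.12% to 4.23%, 1.97% and 1.33% in the jejunum. With 1 library left it was 8.82% to 10.5% and 2.53% to 3.70%. Against state-matched cells Pla2g15 (-0.032), Krt19 (0.11) and Mt2 (0.024) changed sign without a call. Ppef1, Nhs and Sergef were not called without ileum replicate 1, and Pla2g15 was not called without ileum replicate 2. In the jejunum, with fewer members and shallower cells, 83.3% of simulated 1.5-fold changes were recovered, against 100% in the ileum. The cause of these shifts was not tested.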

Other observations

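Further gene lists held calls in both directions in ileal members. Of 21 genes of endoplasmic reticulum stress and secretion, 3 were higher and 11 lower in the ileum (median log2 fold change -0.087), beside 8.01% of all genes lower. Against depth-matched zero cells 0 of 20 were higher and 11 lower (median -0.11). Of 25 immediate early genes 3 were higher and 7 lower (median -0.039). Of 23 genes of epithelial defence and inflammation, 7 were higher and 5 lower in the ileum, and of 20 in the jejunum 7 were higher and 2 lower. Irf7, a factor of the interferon response, was at 179 and 175 CPM in ileal members against 135 and 121 CPM, and at 232 and 291 CPM in jejunal members against 173 and 210.1 CPM (log2 fold change 0.49 and 0.47). Isg15, an interferon-induced ubiquitin-like protein, rose by 0.29 and 0.52, the jejunal call being lost against depth-matched zero cells (adjusted p = 0.211). None of 4 tuft cell markers and none of 6 Paneth cell markers tested in the ileum was called.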
